A study of Mus musculus with 3 samples.

Results

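The Notch genes described here are 10 genes in 3 roles: the receptors Notch1, Notch2, Notch3 and Notch4, the ligands Jag1 and Dll1, and the target repressors Hes1, Hey1, Hey2 and Heyl. They were found as the probe sets annotated with exactly 1 of these gene symbols, which gave 19 of the 45101 probe sets on the array and all 10 genes of 18193. The study profiled RNA of the mouse mesenchymal line C3H10T1/2 in 3 conditions with 1 array each: cells given the retroviral Venus-Mkx vector, which carries the homeobox factor Mohawk (Mkx) joined to the fluorescent protein Venus, cells given the Venus vector, and C3H10T1/2 cells with no vector. All grew in the same serum medium, the vectors were delivered into medium with puromycin, and whether the RNA of an array came from 1 clone or a pool is not stated. With no replicates there is no p-value, and each difference is one between single arrays.

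Notch receptors are single-pass proteins of the cell surface that bind ligands of the Jagged and Delta-like families on a neighbouring cell. Binding exposes the receptor to ADAM proteases and then to γ-secretase, which frees the intracellular domain to enter the nucleus. There it joins the DNA-binding protein RBPJ and Mastermind coactivators and switches on genes of the Hes and Hey families, which encode basic helix-loop-helix repressors. In mesenchymal cells the pathway is known for holding back differentiation, and Jag1, Notch3 and the Hey genes are well known in the mural cells of vessels.

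Values are log2 probe set values as deposited, so a difference of 1 is a 2-fold difference. A level floor of 4.34 was set at the median of the deposited values, and a gene was taken as measured when at least 1 array reached it, as 11169 genes did. A value under the floor may be background alone. Where a gene had several probe sets, the one brightest on average was used, and a call of higher or lower needed a 2-fold difference in one direction from each of the Venus and C3H10T1/2 arrays, the controls. The SD of the log2 difference over measured genes was 0.94 between Venus-Mkx and Venus, 1.03 between Venus-Mkx and C3H10T1/2 and 0.34 between Venus and C3H10T1/2. The values of Mkx went against the label. Its probe set 1437492_at had a log2 value of 2.71 on the array labelled Venus-Mkx, against 7.43 on the Venus array and 6.88 on the C3H10T1/2 array. Whether this probe set lies in the part of Mkx that the vector carries is not known here, so the text speaks of the array labelled Venus-Mkx.

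On the array labelled Venus-Mkx, the ligand gene Jag1 was the 1 member called lower, and no member was called higher. Notch1, Hey1 and Hey2 lay below both controls by smaller amounts, Dll1 lay above both, and Notch2 and Hes1 had nearly or exactly equal values on all 3 arrays. Of the 10 members 8 were measured, while Notch4 and Heyl stayed below the floor on every array. The count of 1 lower member of 8 stands beside 5.34% of measured genes counted as lower, and the count of 0 higher beside 6.82% counted as higher. The median difference of the measured members from Venus was −0.58, and that of all measured genes was 0.00.

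**Figure D1:**
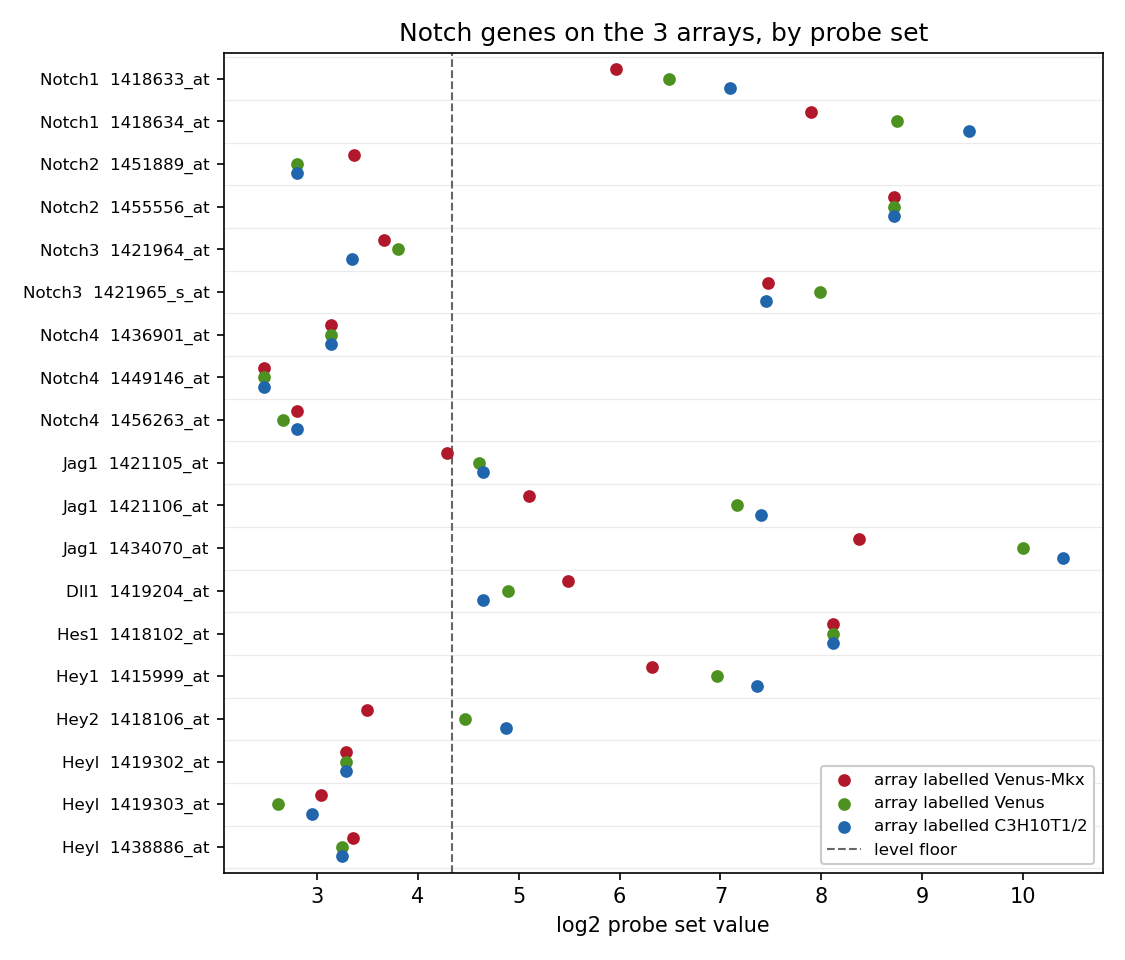
Log2 value of each of the 19 probe sets of the Notch members (rows, gene and probe set) on the array labelled Venus-Mkx (red), the Venus array (green) and the C3H10T1/2 array (blue), 1 array per condition. The dashed line is the level floor of 4.34. Both probe sets of Notch1 and all 3 of Jag1 read lowest on the array labelled Venus-Mkx, and the 3 values coincide for Notch2 1455556_at and nearly so for Hes1.

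To place the members in sequence, promoter windows were taken for the 3 members with the largest differences among those matched by symbol in the RefSeq promoter table (GRCm38.p6). Of the 10 members 7 were matched, without Hes1, Hey1 and Heyl. Each window holds 250 bases before the annotated start and 10 after it, and is written 5′ to 3′ along the gene. Capitals mark matches on either strand to TGGGAA, the core of the RBPJ site, and to CACGCG and CACNAG, which Hes proteins are known to bind.
Jag1 (chr2:137116511-137116770, minus strand, the ligand gene with the largest difference): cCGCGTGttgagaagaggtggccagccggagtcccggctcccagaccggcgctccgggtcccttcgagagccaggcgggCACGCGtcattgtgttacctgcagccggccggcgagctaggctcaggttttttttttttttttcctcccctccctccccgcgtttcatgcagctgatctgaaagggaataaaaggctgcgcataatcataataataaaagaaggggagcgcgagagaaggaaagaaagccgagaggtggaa
Notch1 (chr2:26503813-26504072, minus strand, the receptor gene that lay low on both probe sets): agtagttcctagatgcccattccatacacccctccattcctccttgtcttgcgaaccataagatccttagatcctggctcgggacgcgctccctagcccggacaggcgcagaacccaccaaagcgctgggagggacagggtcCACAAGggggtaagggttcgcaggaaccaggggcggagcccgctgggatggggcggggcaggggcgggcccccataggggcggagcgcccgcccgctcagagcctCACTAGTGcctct
Hey2 (chr10:30842774-30843033, minus strand, the target gene whose lowest value was under the floor): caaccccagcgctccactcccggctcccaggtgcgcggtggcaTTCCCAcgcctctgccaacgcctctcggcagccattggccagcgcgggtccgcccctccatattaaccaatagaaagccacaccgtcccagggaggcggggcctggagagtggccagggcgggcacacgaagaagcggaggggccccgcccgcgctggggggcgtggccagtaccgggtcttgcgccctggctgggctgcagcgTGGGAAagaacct
The Hey2 window held TGGGAA on both strands, with first bases 207 and 3 bases before the start, and it was the 1 of 7 matched members with this word. Of 32851 windows of the same length in the table, 22.4% held it. The Jag1 window held CACGCG, at 249 and 171 bases before the start, as did 7.97% of all windows. Of the 7 matched members 3 held this word, Jag1, Notch2 and Dll1, so it was not particular to Jag1. The Notch1 window held CACNAG at 108, 3 and 1 bases before the start, with the last 2 overlapping on opposite strands, and 37.9% of all windows held it. Among the 7 matched members, 3 held it, Notch1, Notch2 and Notch3. Members were counted by gene, and Dll1 had 2 windows, whereas the percentages are shares of windows. Matches of different words did not overlap. A match describes the letters only and is no evidence of binding in these cells.

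Jag1 encodes Jagged 1, a membrane ligand that activates Notch receptors on adjacent cells. Its probe set 1434070_at had a log2 value of 8.38 on the array labelled Venus-Mkx, against 9.99 on the Venus array and 10.39 on the C3H10T1/2 array. The array labelled Venus-Mkx thus read low and both controls read high, with log2 differences of −1.62 from Venus and −2.01 from C3H10T1/2, or 3.07-fold and 4.04-fold. The controls differed from each other by −0.40, Venus minus C3H10T1/2. Of the measured genes, 1.85% lay as low as Jag1 or lower against both controls. The second probe set, 1421106_at, read 5.10 on the array labelled Venus-Mkx, 7.17 on Venus and 7.41 on C3H10T1/2, which is a wider gap, with log2 differences of −2.06 and −2.31. The third, 1421105_at, was near the floor, with 4.29 on the array labelled Venus-Mkx against 4.61 on Venus and 4.65 on C3H10T1/2. All 3 probe sets differed from both controls in the same direction.

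Dll1, the Delta-like ligand, ran the other way at a low level. Dll1 read 5.49 on the array labelled Venus-Mkx, against 4.89 on Venus and 4.65 on C3H10T1/2. The log2 differences were 0.60 and 0.84, both short of 2-fold, and 9.52% of measured genes lay as high or higher against both controls. All 3 values were above the floor. The 2 ligand genes therefore lay on opposite sides of the controls on these arrays.

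Among the receptors, Notch1 was low on the array labelled Venus-Mkx, and Notch2 and Notch3 did not lie outside the range of the controls. Notch1, the founding mammalian receptor, had a log2 value of 7.90 on the array labelled Venus-Mkx, 8.75 on the Venus array and 9.47 on the C3H10T1/2 array with probe set 1418634_at. Its other probe set, 1418633_at, gave 5.97 on the array labelled Venus-Mkx, 6.49 on Venus and 7.10 on C3H10T1/2. Both probe sets thus had the array labelled Venus-Mkx lowest, Venus between and C3H10T1/2 highest. The log2 difference of the brighter probe set was −0.85 from Venus, under 2-fold, and −1.57 from C3H10T1/2, or 2.97-fold. Venus minus C3H10T1/2 was −0.72, the widest gap of a measured member between the controls, and −0.61 with the second probe set. With single arrays, the vector and the culture behind this gap cannot be told apart.

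Notch2, a receptor of broad expression, had a log2 value of 8.72 on each of the arrays with probe set 1455556_at. These 3 values were equal to the last deposited digit, as they were in 4 of the 19 member probe sets, in 24.6% of all probe sets and in 7.48% of measured genes. The cause of these ties was not tested, and an equal value carries no information on error. The other Notch2 probe set, 1451889_at, was below the floor throughout. Notch3, the receptor of mural cells, read 7.47 on the array labelled Venus-Mkx, 7.98 on Venus and 7.45 on C3H10T1/2 with probe set 1421965_s_at. The Venus array alone was high there, so the log2 difference was −0.51 from Venus and 0.02 from C3H10T1/2. Without probe sets of this kind, whose probes can match more than 1 transcript, Notch3 was left with 1421964_at, which was below the floor throughout. All 3 probe sets of Notch4, an endothelial receptor, were below the floor, at 2.47 to 3.14 on every array.

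The 4 target repressors differed among themselves, and none was called. Hes1, the most general target of the pathway, read 8.12 on every array, and its difference from Venus was 0.00 after rounding. Hey1 read 6.32 on the array labelled Venus-Mkx, 6.97 on Venus and 7.36 on C3H10T1/2. Its log2 difference was −0.64 from Venus and −1.03 from C3H10T1/2. Hey2 read 3.50 on the array labelled Venus-Mkx, 4.47 on Venus and 4.87 on C3H10T1/2, so it reached the floor on the control arrays only. Its log2 differences as read were −0.97 and −1.38. With its level on the array labelled Venus-Mkx taken as the floor, the bounds were at least 1.09-fold lower than Venus and at least 1.45-fold lower than C3H10T1/2. The Venus value lay above the floor of 4.34 by less than the SD per array of 0.24. The bound of 1.09-fold is therefore not shown beyond the spread of single arrays. Hey1 and Hey2 kept the order of Notch1 and Jag1, with the array labelled Venus-Mkx lowest and C3H10T1/2 highest. Outside the members, Tle1, described below and named after its values were seen, had this order too. How many of all measured genes had it was not counted. Hey1 and Hey2 were each read by 1 probe set, as was Hes1. The 3 probe sets of Heyl, a Hey relative of muscle and mural cells, lay between 2.61 and 3.36 on all arrays.

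**Figure D2:**
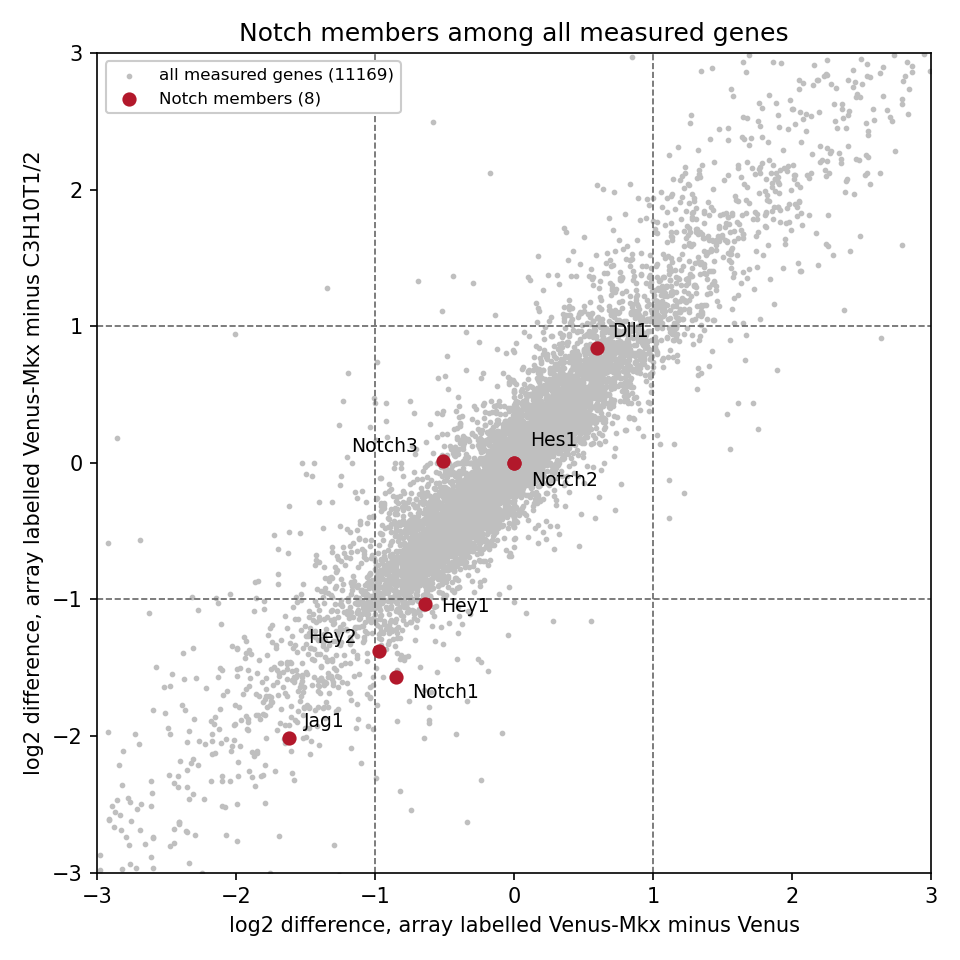
Log2 difference of the array labelled Venus-Mkx from the Venus array (x axis) and from the C3H10T1/2 array (y axis) for the 8 measured Notch members (red) and all 11169 measured genes (grey), 1 array per condition, with dashed lines at 2-fold. The axes end at 3 on either side, which leaves out 323 measured genes. Jag1 lies below both lines, at −1.62 and −2.01, and Notch1, Hey1 and Hey2 lie below the line for C3H10T1/2 and above −1 for Venus.

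The number of lower members moved with the control and the threshold, because Notch1, Hey1 and Hey2 lay nearer to Venus than to C3H10T1/2. Against Venus alone, Jag1 was the 1 member at least 2-fold lower, beside 6.68% of measured genes. Against C3H10T1/2 alone, Jag1, Notch1 and Hey1 were at least 2-fold lower, and Hey2 as read made a count of 4 of 8 members, beside 6.80% of measured genes as read. Against the mean of the 2 controls, Jag1 and Notch1 were lower, with Hey2 added as read, beside 6.66%. At 1.5-fold from both controls, Jag1, Notch1 and Hey1 were lower, with Hey2 added as read, beside 11.6%, and Dll1 was higher, beside 12.0%. The bounds of at least 1.09-fold and 1.45-fold for Hey2 reach none of these thresholds, so Hey2 was not shown to pass them. At 3-fold from both controls, Jag1 was the 1 lower member, beside 2.50%. With arrays centred on their medians, or quantile normalized, Hey2 as read was also past 2-fold from Venus, at −1.02 and −1.01. These comparisons share arrays and are not independent of each other.

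Between the control arrays, no member was 2-fold apart. At 2-fold, 1.49% of measured genes were higher in Venus than in C3H10T1/2, and 0.555% were lower. The members' log2 differences, Venus minus C3H10T1/2, ran between −0.72 for Notch1 and 0.53 for Notch3, with a median of −0.20. At 1.5-fold, Notch1 was the 1 member lower in Venus, beside 1.63% of measured genes.

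The rest of the pathway was followed in a list of 55 other genes, of which 51 had a probe set and the others were not analysed here. Of the 43 measured genes, 3 were called higher, 0 lower and 40 neither, beside 6.82% higher and 5.34% lower among all measured genes. The median log2 difference of the list from Venus was 0.11. The 3 higher genes were Dtx3l, Tle2 and Tle4. At 3-fold, Dtx3l was the 1 higher gene, beside 3.75% of measured genes.

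Dtx3l encodes a ubiquitin ligase of the Deltex family and is known as an interferon-induced gene. It read 9.26 on the array labelled Venus-Mkx, 6.79 on Venus and 5.56 on C3H10T1/2, with log2 differences of 2.47 and 3.70, and its other probe set differed by 2.80 and 3.83. Venus was also above C3H10T1/2 by 1.23. Tle2 and Tle4 encode Groucho-type co-repressors, which Hes proteins recruit. Tle2 read 9.02 on the array labelled Venus-Mkx, against 7.85 on Venus and 7.92 on C3H10T1/2. Tle4 read 7.29 on the array labelled Venus-Mkx, against 6.20 on Venus and 6.00 on C3H10T1/2. Its differences were 1.10 and 1.29, but over the mean of its 3 probe sets, of which 1 stayed below the floor throughout, the difference from Venus was 0.65. Their relatives Tle1 and Tle3 are named after their values were seen. Tle1 lay on the other side, with 7.45 on the array labelled Venus-Mkx, 8.13 on Venus and 8.52 on C3H10T1/2, and Tle3 read 8.67 on every array.

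**Figure D3:**
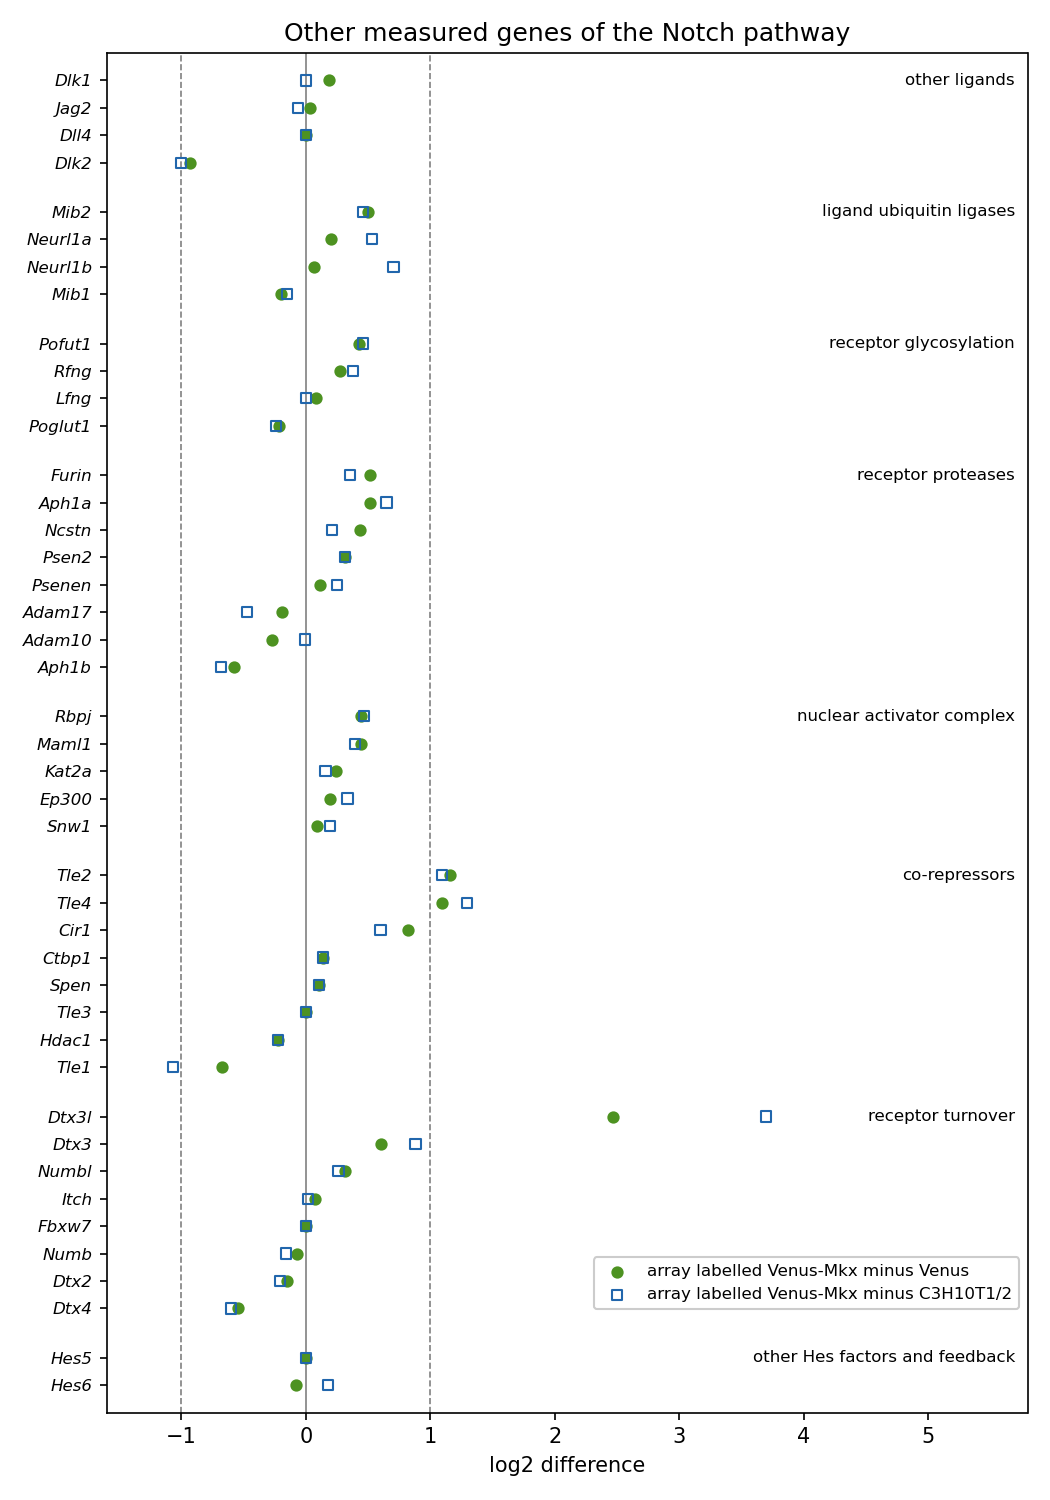
Log2 difference of the array labelled Venus-Mkx from Venus (filled circles) and from C3H10T1/2 (open squares) for the 43 measured other genes of the Notch pathway, grouped by role, 1 array per condition, with dashed lines at 2-fold. Dtx3l, Tle2 and Tle4 lie beyond the upper line for both controls, and no gene lies beyond the lower line for both.

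No gene was called among the other ligands, the ligand ubiquitin ligases, the receptor glycosylation enzymes, the receptor proteases and the nuclear activator complex. Rbpj, the DNA-binding partner of Notch, read 9.91 on the array labelled Venus-Mkx, 9.47 on Venus and 9.44 on C3H10T1/2. All 5 measured genes of the nuclear activator complex lay above Venus, by 0.09 for Snw1 to 0.44 for Rbpj on the log2 scale, none of them at 2-fold. Snw1, Ep300 at 0.19 and Kat2a at 0.24 differed from Venus by less than 0.34, the SD of the difference between the controls. Maml1 at 0.44 and Rbpj differed by more. Ep300, Kat2a and Maml1 are named after their values were seen. In the whole list 27 of the 43 measured genes lay above Venus, 12 lay below and 4 were equal to it. Among all measured genes 54.2% lay at or above Venus and 57.2% at or below. Both of these shares include the ties, so they are not the same measure as the list counts without ties. Of the 8 measured receptor proteases, 5 lay above Venus and 3 below, between −0.58 and 0.52. Adam10, which makes the first activating cut, differed by −0.28 from Venus, and Psenen, a subunit of γ-secretase, by 0.11. The ligand ubiquitin ligase gene Mib1 differed by −0.20 and Mib2 by 0.50. Among genes that put sugars on the receptor, Rfng differed by 0.28 and Poglut1 by −0.22.

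Of the other ligands, Jag2 differed by 0.03 from Venus, and Dlk2, a Delta-like protein known as an inhibitor of the pathway, by −0.93. The receptor regulators Numb and Itch differed by −0.07 and 0.08, and the co-repressor genes Ctbp1 and Hdac1 by 0.14 and −0.23. Of the 6 other Hes genes and feedback genes, 2 were measured. Hes5 read 4.91 on every array, and Hes6 differed by −0.08 from Venus. Nrarp, a feedback inhibitor that the pathway induces, named after its values were seen, was below the floor on all arrays.

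Acta2 and Cspg4, genes of smooth muscle and pericytes, in which this pathway is well known, were lower on the same array. Of 8 such markers 6 were measured, of which 3 were called lower as read and 0 higher, beside 5.34% lower and 6.82% higher among all measured genes. Cspg4, the NG2 proteoglycan, read 5.95 on the array labelled Venus-Mkx, 9.41 on Venus and 9.60 on C3H10T1/2. Acta2, smooth muscle actin, read 10.42 on the array labelled Venus-Mkx, 13.17 on Venus and 13.04 on C3H10T1/2. Cnn1, calponin, was called lower as read, but its value was under the floor there, which shows only that it was at least 2.51-fold lower than Venus and at least 1.89-fold lower than C3H10T1/2. Of the others, Tagln differed from Venus by −0.73 and Mcam by 0.56 on the log2 scale, and Des was equal on all arrays. The summed linear values of the 8 markers were 2035 on the array labelled Venus-Mkx, 10839 on Venus and 10017 on C3H10T1/2, and Acta2 made up most of each sum. Myh11 and Rgs5 were below the floor on all 3 arrays. Fewer cells of one kind and less RNA per cell cannot be told apart in such a sample, and the part of these marker differences in the Jag1, Notch1 and Hey values was not tested.

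Of 8 mesenchymal markers, 7 were measured, with Lum below the floor. Col1a1 and Thy1 were called higher and the other 5, among them Vim, neither. Among those called neither, Pdgfra differed by −0.69 from Venus and −1.01 from C3H10T1/2. Beside each list in this paragraph stand 6.82% higher and 5.34% lower among all measured genes. The summed linear values were 43701 on the array labelled Venus-Mkx, 40636 on Venus and 39666 on C3H10T1/2. The endothelial markers Pecam1, Cdh5, Kdr, Tie1 and Emcn were below the floor on all arrays, 5 of 6, and Tek was called higher. Their summed values were 97.9 on the array labelled Venus-Mkx, 51.0 on Venus and 59.0 on C3H10T1/2. Of 6 macrophage markers, Ptprc, Adgre1, Cd68 and Itgam were below the floor on all arrays, while Csf1r and Lyz2 were called higher. The sums were 283 on the array labelled Venus-Mkx, 105 on Venus and 70.9 on C3H10T1/2. The part of these genes in the Notch values was not tested. Of 5 epithelial markers 3 were below the floor and none of the measured 2 was 2-fold apart, with sums of 247 on the array labelled Venus-Mkx, 191 on Venus and 163 on C3H10T1/2.

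The measured genes nearest to Jag1 in their 2 differences, by Euclidean distance on the log2 scale, were Tcf7l2, a transcription factor of the Wnt pathway, Prxl2b and Olfml2b, at distances of 0.04, 0.05 and 0.10. Tcf7l2 read 7.05 on the array labelled Venus-Mkx, 8.71 on Venus and 9.08 on C3H10T1/2. Prxl2b reached the floor on the control arrays only. With 3 arrays such likeness is a description only.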

How the data were processed

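RNA was hybridised to Affymetrix mouse whole-genome arrays, 1 each for C3H10T1/2 cells with Venus-Mkx, with Venus and with no vector. Per the methods, RNA was biotinylated with a 3′ in vitro transcription kit and the arrays were summarized by MAS 5.0, whereas the submitters' processing notes name RMA. No version is given in these sources. Values deposited by the authors are log2 signals per probe set, judged as log2 by their range (1.44 to 14.00) and near-equal distributions, with medians of 4.39, 4.34 and 4.34. They were used with no further normalization and without detection calls, so the number of arrays and signal over background limit the precision.

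After leaving out 64 control probe sets, 34945 had 1 gene symbol in the platform annotation (updated by gene ID to GRCm38.p6), 932 several and 9160 none. Members, lists and thresholds were chosen with earlier results of these data known. Named genes were the members, Mkx, counted pathway genes, the 2 with the highest mean level in each pathway role and the 3 nearest to each counted member. Up to 3 genes per marker list were named, with more markers named to show those below the floor or not called. Alternatives changed the floor, probe sets, scale, control and threshold. The counting rule was tested on simulated data. Promoter letters came from RefSeq. Scripts ran under Python 3.11.15, NumPy 2.4.6, pandas 2.3.3 and matplotlib 3.10.9.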

Additional observations from a re-analysis of the deposited data

How the results depend on the processing

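With 1 array per condition, nothing could be left out, and a value was taken as moved when it shifted by more than 0.24, the SD per array estimated between the controls. A count was taken as moved outside 1.5 times its reported size. No paired analysis was possible because each group holds 1 array. The count of lower members, 1 in the report, was 2 with arrays centred on their medians and 2 with quantile normalization, where Hey2 passed 2-fold against Venus at −1.02 and −1.01. It was 4 at 1.5-fold, 4 against C3H10T1/2 alone and 3 against the mean of the controls, in each case counting Hey2 as read under the floor. At 1.5-fold, 1 member was higher, and 1 member was lower in Venus than in C3H10T1/2, beside 1.63% of measured genes. At the same threshold 5 of the 43 measured pathway genes were higher and 2 lower, the added ones being Cir1, Dtx3, Dlk2 and Tle1. Among all measured genes 12.0% were higher and 11.6% lower at 1.5-fold from both controls. At 3-fold 1 pathway gene was higher, beside 3.75% of measured genes. Against C3H10T1/2 alone 2 pathway genes, Dlk2 and Tle1, were lower, beside 6.80%. With no floor, the members' median difference from Venus was −0.26, because genes below background were added. Over the mean of all probe sets, Jag1 differed from Venus by −1.33 and Notch2, with a probe set below the floor, by 0.28. Of 230 recomputed values 205 stayed within these limits, 25 moved and 0 changed sign past 2-fold. Many of the 205 could not move. A change of floor or threshold, or a count against Venus alone, leaves a gene's difference from Venus as it was. A change of sign was counted only for differences of at least 2-fold in the report. The tally is therefore no measure of how stable the values are. Levels below the floor of 4.34 limit what can be read for Hey2, Heyl and Notch4.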
